A study of Mus musculus with 9 samples.

Results

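PPARγ binding was examined at 4 genes that control lipoprotein lipase, namely Angptl4, Angptl8, Gpihbp1 and Lmf1. A binding peak was taken as a member when its midpoint lay in a window of 60 kb around Angptl4, 45 kb around Angptl8, 40 kb around Gpihbp1 or 120 kb around Lmf1. The windows held 25 of the 66066 peaks in the series, with 7 at Angptl4, 9 at Angptl8, 4 at Gpihbp1 and 5 at Lmf1. The data were PPARγ ChIP-seq counts from interscapular brown adipose tissue (iBAT) of male, chow-fed C57BL/6J mice, 10 weeks old, kept at mild cold under a 12 h light and 12 h dark cycle. Tissue was taken at Zeitgeber time (ZT) 0, 3, 6, 9, 12, 15, 18 and 21, where ZT0 is lights on and ZT12 lights off. Each time point was 1 library from tissue that, per the labels, was pooled from 8 mice, so no time point was replicated and no spread between mice could be measured. The groups differed only in the time of collection, and all mice were of wild type.

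Lipoprotein lipase (LPL) frees fatty acids from circulating triglyceride-rich lipoproteins, and brown fat is one of the tissues that takes up most of them. The enzyme is made in adipocytes, folded in the endoplasmic reticulum with the help of LMF1, and carried to the capillary lumen by GPIHBP1, a protein of endothelial cells. ANGPTL4 inactivates LPL, and ANGPTL8 acts on it together with related proteins. PPARγ is the nuclear receptor that drives the adipocyte programme, and it binds as a heterodimer with RXR to direct repeats of AGGTCA-like hexamers with a spacer of 1 base (DR1). Angptl4 is a known target gene of PPARs.

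DR1-like elements were searched because they are the sequence that PPARγ:RXR recognises. The letters AGGTCA, any base and AGGTCA in 1 run were looked for on both strands of GRCm38 (the assembly of mm10, which the peaks use), and up to 2 mismatches were allowed among the 12 fixed bases. The elements below were picked from those in the member peaks, called or not, and are not all that were found. They are printed 5′ to 3′ on the strand of the element, which is in capitals within 24 bases of flank on each side.
Angptl4 intron 3, chr17:33779273-33779333, plus strand: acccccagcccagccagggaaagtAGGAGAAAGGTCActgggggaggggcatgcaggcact
Angptl4 intron 6, chr17:33775751-33775811, plus strand: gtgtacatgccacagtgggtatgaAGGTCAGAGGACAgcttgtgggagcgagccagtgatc
Angptl4 downstream, chr17:33774380-33774440, minus strand: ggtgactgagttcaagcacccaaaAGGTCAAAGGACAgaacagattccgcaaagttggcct
Angptl8 upstream, in Dock6 intron 18, chr9:21832774-21832834, plus strand: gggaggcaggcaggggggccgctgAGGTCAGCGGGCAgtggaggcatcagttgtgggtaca
Angptl8 upstream, in Dock6 intron 20, chr9:21831180-21831240, plus strand: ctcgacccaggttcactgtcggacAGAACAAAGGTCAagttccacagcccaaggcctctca
Dock6 intron 1 in the Angptl8 window, chr9:21849795-21849855, plus strand: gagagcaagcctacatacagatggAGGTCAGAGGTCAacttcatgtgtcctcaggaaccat
Gpihbp1 upstream, chr15:75594653-75594713, plus strand: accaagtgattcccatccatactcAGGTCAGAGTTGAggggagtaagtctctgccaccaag
Gpihbp1 upstream, chr15:75596198-75596258, minus strand: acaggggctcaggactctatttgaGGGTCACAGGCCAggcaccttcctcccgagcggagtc

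Of the 25 member peaks, 7 (28%) held at least 1 such element, against 23.6% of the 66059 peaks that could be read from the assembly. With at most 1 mismatch the count was 2 (8%), against 4.99%, and within 150 bases of the peak centre it was 2 (8%), against 9.69%. The share rises with the length of a peak, from 15% of peaks of 300 to under 700 bases to 87.1% of the 70 peaks of 10000 bases or more. The peak over Angptl4 held 6 elements in 13220 bases, of which the one in intron 6 and the one printed from downstream of the gene had 1 mismatch. The element in intron 3, with 2 mismatches, lay 189 bases from the peak centre. The peak upstream of Angptl8 held 2 elements with 2 mismatches each. Among the member peaks, the element in Dock6 intron 1 was the one with 0 mismatches, and it lay 18 bases from the centre of a weak peak of 339 bases. The Gpihbp1 elements, both with 2 mismatches, were 1947 and 402 bp upstream of the start site. No peak in the Lmf1 window held these letters. Nor did the called peaks at the Rab11b start, in Dock6 introns 2 and 9, 3457 bp upstream of Gpihbp1 and 20954 bp upstream of Angptl4. RefSeq promoters (250 bases before to 50 after the start, GRCm38.p6) were matched for 2 of the 4 genes, Angptl8 and Lmf1, and not for Angptl4 and Gpihbp1. Neither matched promoter held the element, which 3.86% of 32851 promoters did. Both are shown because a peak lay over each.
Angptl8 promoter, chr9:21835260-21835559, plus strand: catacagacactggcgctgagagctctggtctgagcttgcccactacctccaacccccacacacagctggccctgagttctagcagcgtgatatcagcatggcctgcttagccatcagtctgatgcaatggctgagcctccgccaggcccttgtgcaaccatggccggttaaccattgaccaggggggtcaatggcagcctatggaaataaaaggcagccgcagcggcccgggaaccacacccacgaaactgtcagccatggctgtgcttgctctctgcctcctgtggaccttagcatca
Lmf1 promoter, chr17:25578924-25579223, plus strand: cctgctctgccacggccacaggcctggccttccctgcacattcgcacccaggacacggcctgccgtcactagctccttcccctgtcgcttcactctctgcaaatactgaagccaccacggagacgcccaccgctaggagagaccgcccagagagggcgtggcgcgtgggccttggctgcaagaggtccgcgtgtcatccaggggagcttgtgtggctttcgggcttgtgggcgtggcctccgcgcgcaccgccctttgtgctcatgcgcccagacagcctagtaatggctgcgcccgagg

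The libraries held 29572225 to 34264812 reads in peaks. They differed in how far the reads were drawn to strong peaks. The strongest 10% of peaks took 48.05% of the reads at ZT6, 44.2% at ZT15 and 44.26% at ZT18, with the other libraries between 45.24% and 47.15%. Counts are given after TMM scaling, which moved the median peak by 0.06 (log2) at ZT6 and by −0.05 at ZT18 relative to scaling on library totals. An input library from ZT12 was not used here because the counts hold no column for it.

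Rhythm was tested in 2 ways over all 66066 peaks. JTK-cycle ranks the 8 time points against cosine curves, with an exact P adjusted within a peak. The edgeR quasi-likelihood test fits a 24 h cosine, with Benjamini-Hochberg adjustment over all peaks. JTK called 4 of 25 member peaks (16%) at P under 0.05, where 11.6% of all peaks were called. The cosine called 7 of 25 (28%), where 13.4% of all peaks were called. Together 8 member peaks were called by at least 1 test and 3 by both. After Benjamini-Hochberg adjustment of the JTK values no peak in the series had q under 0.05, and the lowest q was 0.0968. Of the 7 cosine calls, 6 had their fitted high point between ZT0 and ZT12 and 1 between ZT12 and ZT24. Of the 8842 cosine calls over all peaks, 5000 (7.57% of all peaks) fell in the first span and 3842 (5.82%) in the second. The median fitted swing from trough to peak was 1.29-fold for the members and 1.27-fold for all peaks. Under cyclic loess JTK called 1 member (11.0% of all peaks) and the cosine 6 (11.1%), and on library totals they called 3 (12.3%) and 7 (13.5%). Without the ZT15 and ZT18 libraries, a pair left out after the data were seen, neither test called a member peak, and 7 members had an unadjusted cosine p under 0.05 in the 6 libraries that remained. Over all 66066 peaks JTK then called 5200 and the cosine 826. The share of all peaks with an unadjusted cosine p under 0.05 in those libraries was not counted. The 7 members thus have no background beside them. With 6 libraries JTK can call only a peak whose order matches a reference curve in full.

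**Figure D1:**
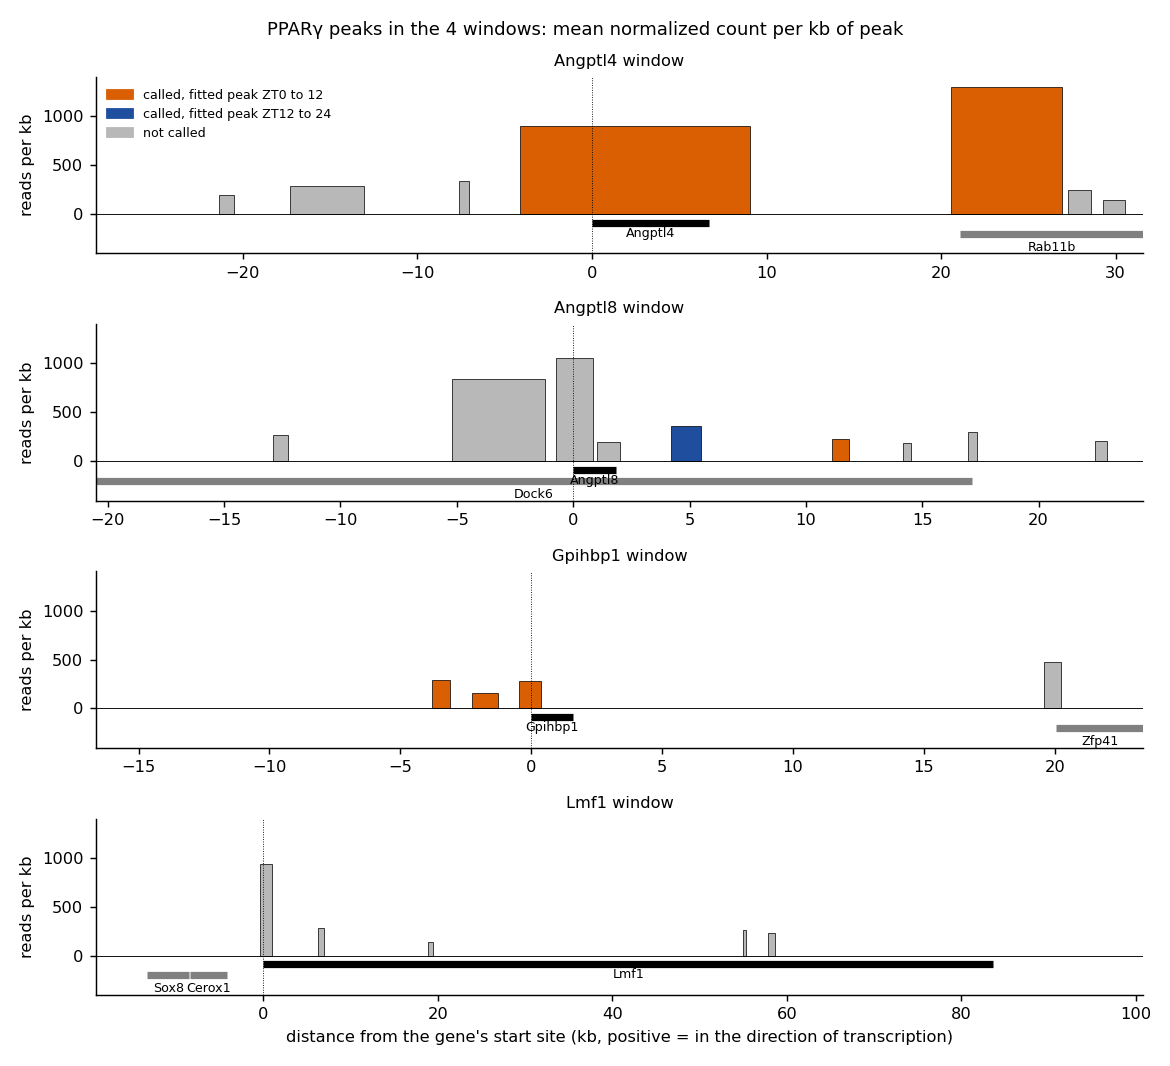
PPARγ peaks in each window, drawn at their width against distance from the start site of the named gene (kb), with height as the mean normalized count per kb over the 8 libraries. Orange and blue bars passed the edgeR cosine test with a fitted high point at ZT0 to ZT12 or ZT12 to ZT24, grey bars did not, and black and grey lines mark the named gene and its neighbours. The Angptl4 gene lies within 1 peak, and 3 called peaks sit at and upstream of the Gpihbp1 start.

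Angptl4, the secreted inhibitor of LPL, lay within the strongest member peak, at chr17:33772505-33785724. The peak covered the whole gene (minus strand, 7 exons), with its centre in intron 3, 2461 bp downstream of the start site. Its mean normalized count of 11950 was at the 99.98 percentile of all peaks, and its level per length, 904 reads per kb, was at the 97.3 percentile. From ZT0 to ZT21, in steps of 3 h, normalized counts were 11580, 13080, 15190, 12880, 11890, 9318, 10270 and 11370. Binding thus stood highest in the middle of the light phase and lowest early in the dark phase. ZT6 was 1.63 times ZT15 (95% interval 1.59 to 1.67, from both counts on the log scale). This interval covers counting error only, as does every interval here. It makes no allowance for ZT6 and ZT15 having been picked as highest and lowest. JTK gave an exact P of 0.026 and the cosine an adjusted p of 0.00483, with a swing of 1.44-fold (0.53 ± 0.10 log2, SE) and a fitted high point at 5.34 ± 0.75 h (SE). Of the 7 pairs of neighbours in the order of its levels, 3 had overlapping counting intervals.

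The time course of the Angptl4 peak ran with the share of reads in strong peaks, which was likewise highest at ZT6 and lowest at ZT15. Under cyclic loess, which evens out trends with signal strength, the swing was 1.10-fold, the exact JTK P was 0.915 and the cosine adjusted p 0.275. Scaling on library totals gave 0.0104. Leaving out each library in turn kept the cosine call in 8 of 8 fits, with adjusted p between 0.00451 and 0.032, and the JTK call in 5 of 8, with exact P = 0.161 without ZT3, ZT6 or ZT9. Without both ZT15 and ZT18 the cosine adjusted p was 0.189. The counts come from whole tissue, so a change in binding per nucleus and a change in the share of cells with that binding cannot be told apart. Whether the change belonged to Angptl4 or to strong peaks as a class cannot be told apart from these counts.

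The other strong peak in the window, chr17:33754640-33760988, lay over the start site of Rab11b, a neighbouring gene of vesicle transport, with its centre 23761 bp downstream of the Angptl4 start. Its normalized counts were 8640, 8862, 10580, 8562, 8151, 6325, 7082 and 8051 from ZT0 to ZT21. It had the highest level per length of the member peaks, 1304 reads per kb. Its course was like that of the Angptl4 peak, with an exact JTK P of 0.026, a cosine adjusted p of 0.00779 and a fitted high point at 4.64 h. Within a library the Angptl4 peak held between 1.34 (ZT0) and 1.50 (ZT9) times its reads. The 24 h swing of that ratio was 0.10 ± 0.04 (log2, SE), with an exact permutation p of 0.141 (adjusted 0.37 over the 21 pairs within windows). Under loess this peak also lost both calls, with an exact JTK P of 0.467 and a cosine adjusted p of 0.101.

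Weak peaks flanked these. The peak at chr17:33802092-33802967, 20954 bp upstream of Angptl4 and nearest to Kank3, had normalized counts of 151.9, 179.8, 193.2, 191.0, 165.3, 138.6, 145.7 and 177.7 from ZT0 to ZT21. JTK called it (exact P = 0.026, also under loess) and the cosine did not (adjusted p = 0.288). The JTK call was lost on library totals (exact P = 0.212), with a period of 24 h alone (0.113), with tied reference values (0.0543) and without ZT6 (0.161). The peak at chr17:33788611-33789221, 7341 bp upstream of Angptl4, had 285.5 at ZT6 and 155.0 at ZT18 (cosine adjusted p = 0.0533). The other 3 peaks, 1 upstream and 2 in Rab11b intron 1, passed neither test. Over the window, 5 of 7 peaks were highest at ZT6, as were 17.4% of all peaks.

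**Figure D2:**
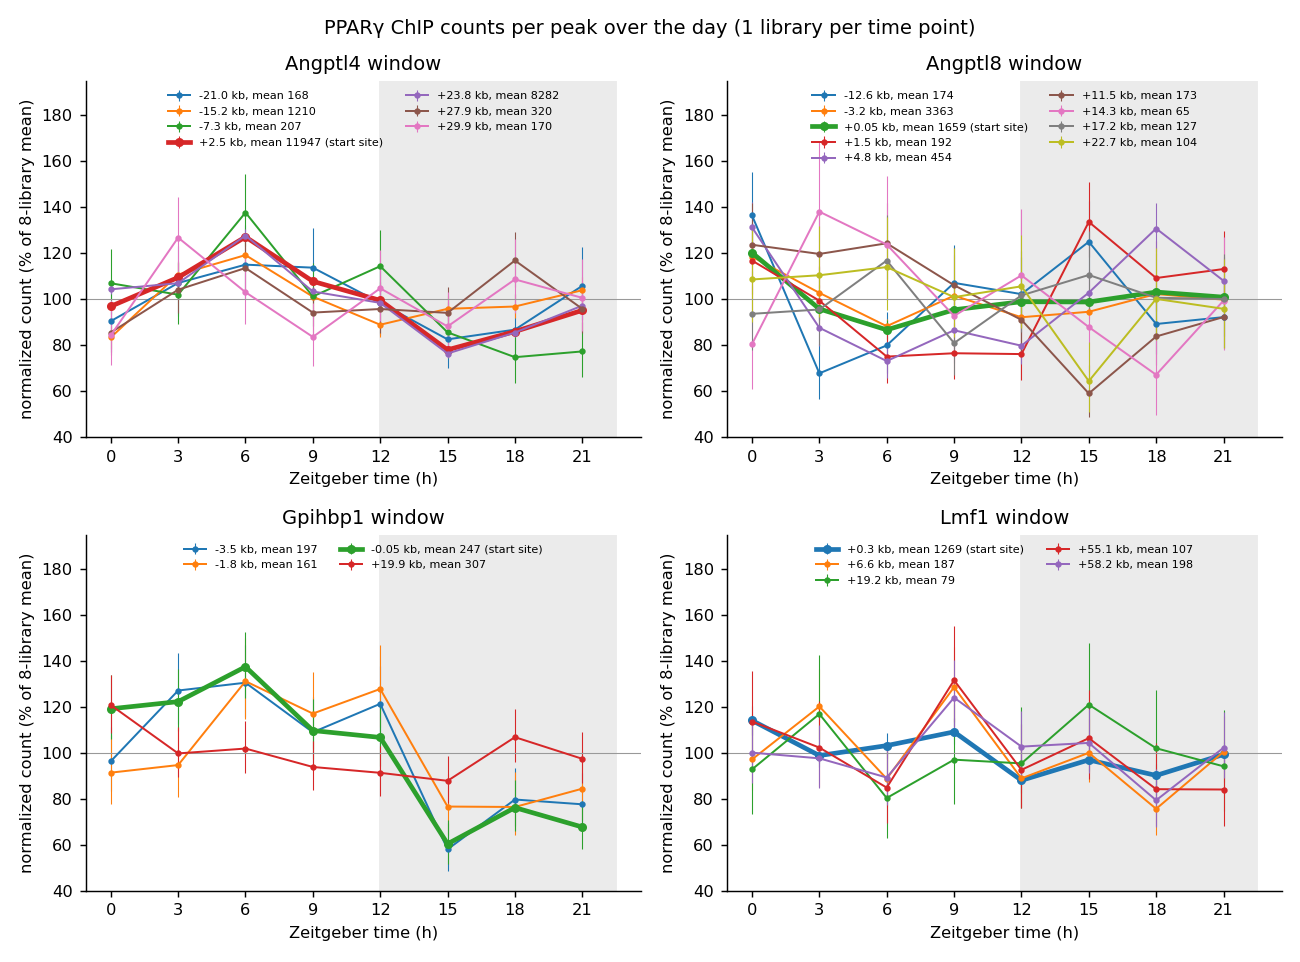
Normalized count of each member peak at each Zeitgeber time, as a percentage of its own mean over the 8 libraries, with 95% Wilson intervals for counting error, and the dark phase shaded. Labels give the distance of the peak centre from the start site of the named gene and the mean normalized count, and the thick line is the peak over that start site. Angptl4 and Gpihbp1 start-site peaks were highest at ZT6, where the Angptl8 start-site peak was lowest, and the Lmf1 peaks showed no shared course.

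Angptl8, the partner of ANGPTL4 that feeding and insulin raise, lies on the plus strand inside intron 14 of Dock6, which runs on the minus strand. Reads over Angptl8 are thus also over Dock6, and a peak cannot be given to either gene. The strongest peak, chr9:21830307-21834317, had its centre in Dock6 intron 18, 3198 bp upstream of the Angptl8 start. Its normalized counts were 3987, 3457, 2969, 3416, 3100, 3180, 3440 and 3357 from ZT0 to ZT21. It was highest at ZT0 and lowest at ZT6, by 1.34 times (1.28 to 1.41). It passed neither test (exact JTK P = 0.915, cosine adjusted p = 0.254).

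The peak over the Angptl8 start site, chr9:21834774-21836349, covered exon 1 and had 1052 reads per kb, at the 98.6 percentile. Its normalized counts were 1995, 1589, 1438, 1583, 1641, 1639, 1711 and 1674. ZT0 stood above the other libraries and ZT6 below them, and 6 of the 7 pairs of neighbours in the order had overlapping intervals. The fitted high point was 20.8 ± 2.0 h, and neither test called it (exact JTK P = 0.212, cosine adjusted p = 0.295). The weak peak in Angptl8 intron 3 had its lowest count, 143.7, at ZT6 and was highest at ZT15, by 1.78 times (1.46 to 2.18), with a cosine adjusted p of 0.0632 (0.0422 on library totals).

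The cosine called 2 peaks of the Angptl8 window, with fitted high points on opposite sides of the day. The peak at chr9:21839721-21840983, in Dock6 intron 9 and 4842 bp downstream of the Angptl8 start, had normalized counts of 596.5, 397.9, 332.1, 393.0, 362.4, 467.3, 594.2 and 490.9. It was high at ZT18 to ZT0 and low from ZT3 to ZT12, with a swing of 1.66-fold (0.73 ± 0.19 log2) and a fitted high point at 20.2 ± 0.97 h. The cosine adjusted p was 0.0206 (0.0263 under loess), and JTK gave an exact P of 0.0826 (0.026 on library totals). This was the sole member peak called with a high point in the dark phase. Without ZT6, ZT12 or ZT18 its cosine adjusted p was 0.0745, 0.0512 or 0.0954, and the other 5 of 8 such fits kept the call.

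The other, chr9:21846620-21847361 in Dock6 intron 2 and nearest to the Dock6 start, had 213.5, 206.6, 214.6, 183.1, 157.1, 101.8, 144.6 and 159.2. It was high from ZT0 to ZT6 and lowest at ZT15, with a swing of 1.84-fold (0.88 ± 0.18 log2) and a fitted high point at 3.63 ± 0.77 h. Both tests called it (exact JTK P = 0.026, cosine adjusted p = 0.0206), and loess kept the cosine call (0.0197). The JTK call was lost under loess and on library totals (exact P = 0.0826 in both), and 3 of 8 fits without 1 library kept it, those without ZT9, ZT12, ZT15, ZT18 or ZT21 giving 0.161. Without ZT6, ZT15 or ZT18 the cosine adjusted p was 0.0589, 0.12 or 0.0577, and the other 5 of 8 such fits kept the call. Its count relative to the strongest peak of the window fell most at ZT15, when the strongest peak held 31.2 times its reads, against 13.8 at ZT6. The exact permutation p of that ratio was 0.00516, the lowest of the 21 within-window pairs, and 0.108 after adjustment over them.

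The remaining peaks of the Angptl8 window passed neither test. They comprised a peak in Dock6 intron 26 (117.7 at ZT3 to 237.1 at ZT0), the DR1-bearing peak in Dock6 intron 1 (43.7 at ZT18 to 89.9 at ZT3), the peak over the Dock6 start (102.9 at ZT9 to 148.6 at ZT6) and one beyond it (66.9 at ZT15 to 118.5 at ZT6). Across the window 4 of 9 peaks were lowest at ZT6, all 4 from the upstream peak to the one in Dock6 intron 9, where 16.4% of all peaks were. Those 4 had fitted high points between 20.0 and 23.0 h.

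**Figure D3:**
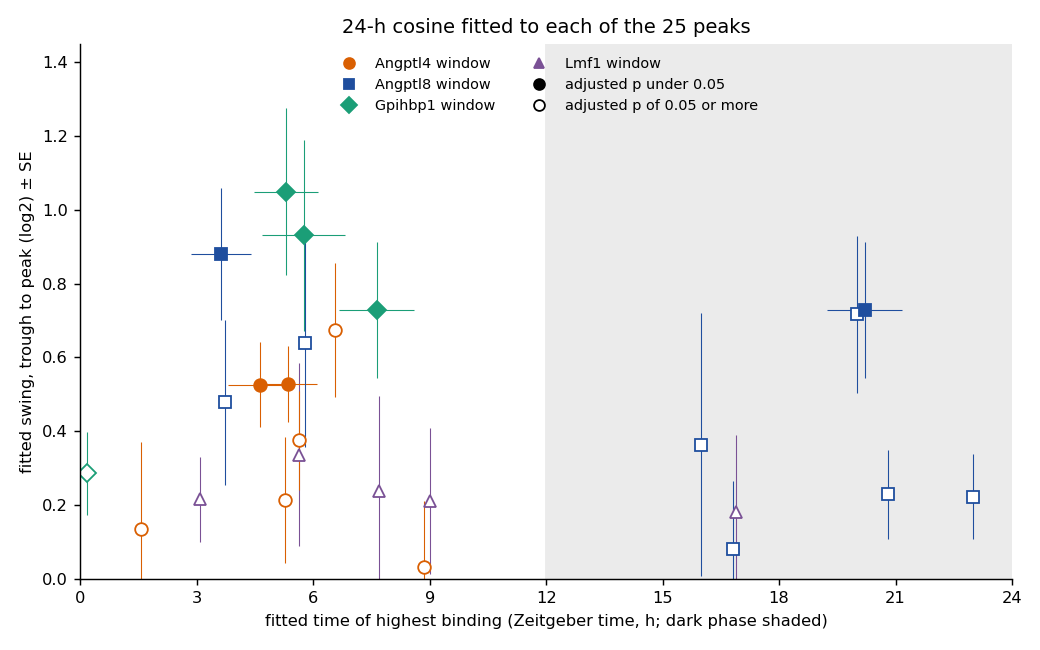
Fitted swing from trough to peak (log2, ± SE) of the 24 h cosine against its fitted high point (Zeitgeber time, h) for the 25 member peaks, with filled symbols where the adjusted p was under 0.05 and, for those, the SE of the time. Of the 7 filled symbols, 6 lie between 3.63 and 7.63 h, and the Angptl8-window peak in Dock6 intron 9 lies at 20.2 h.

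Gpihbp1, the endothelial carrier of LPL, had at its start site the widest fitted swing of the 25 member peaks, in tissue where adipocytes and capillary cells were not separated. This peak, chr15:75596148-75597017, had its centre 48 bp upstream of the start and 284 reads per kb, at the 52.8 percentile. Its normalized counts were 294.6, 302.3, 339.8, 271.2, 263.8, 149.3, 188.3 and 167.4 from ZT0 to ZT21. Counts from ZT0 to ZT12 all stood above those from ZT15 to ZT21. ZT6 was 2.28 times ZT15 (1.88 to 2.75), and the fitted swing of 2.07-fold (1.05 ± 0.23 log2) was at the 97.3 percentile of all peaks. These values are of binding. The paper reports that RNA of Gpihbp1 did not oscillate in brown fat, while RNA of Angptl4 and Angptl8 did.

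The cosine called this peak with an adjusted p of 0.0104, a fitted high point at 5.29 ± 0.83 h, and the same side of the threshold under 4 of 4 other normalizations (0.0109 to 0.0177). It was kept in 8 of 8 fits that left out 1 library, with 0.0489 as the highest value, without ZT15. JTK gave an exact P of 0.0826, under this and the other normalizations alike. Of the 7 members the cosine called, it was the only one that kept the call under all 4 normalizations and in all 8 fits without 1 library. Without both ZT15 and ZT18 its adjusted p was 0.25.

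The 2 peaks upstream followed a like course. The peak at chr15:75592838-75593508, 3457 bp upstream, had 189.9, 250.6, 257.3, 214.8, 239.2, 114.4, 157.1 and 153.0. Its cosine adjusted p was 0.0288, its exact JTK P 0.212 and its fitted high point 5.75 h, and without ZT6, ZT15, ZT18 or ZT21 the adjusted p was 0.0857, 0.0727, 0.0743 or 0.0554. The peak at chr15:75594356-75595357, 1774 bp upstream, had 146.8, 152.1, 210.7, 188.1, 205.3, 123.1, 122.8 and 135.6. Its cosine adjusted p was 0.0447 (0.0718 on library totals), its exact JTK P 0.0826 and its fitted high point 7.63 h, and 1 of 8 fits that left out a library, the one without ZT3, kept the call. The cosine called all 3 peaks nearest to Gpihbp1 (13.4% of all peaks) and JTK none (11.6%), and on library totals the cosine called 2 of the 3.

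The strongest peak in the window, chr15:75616197-75616847, belonged to the start site of Zfp41, 19892 bp from that of Gpihbp1. Its normalized counts of 370.6, 306.1, 312.6, 288.0, 280.2, 269.5, 327.8 and 298.9 gave no call (exact JTK P = 0.915, cosine adjusted p = 0.338). Within a library it held 0.92 times the reads of the Gpihbp1 start-site peak at ZT6, and the ratio swung by 2.03-fold over the day (1.02 ± 0.15 log2). The exact permutation p of that ratio was 0.0107, and 0.113 after adjustment over the 21 pairs.

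**Figure D4:**
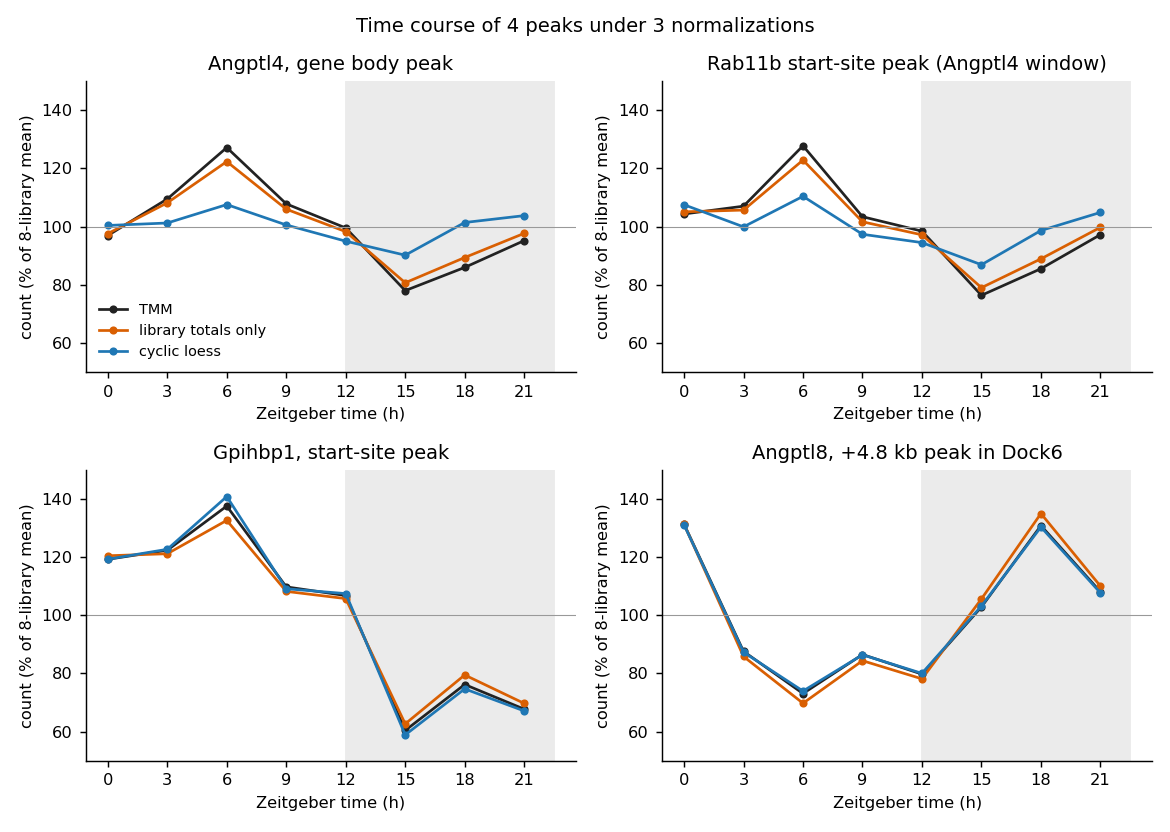
Counts at each Zeitgeber time as a percentage of the mean over the 8 libraries for 4 called peaks, after TMM scaling, scaling on library totals or cyclic loess. Loess flattens the Angptl4 and Rab11b peaks, with the Angptl4 swing going from 1.44-fold to 1.10-fold, and leaves the Gpihbp1 start-site peak (2.07-fold and 2.14-fold) and the peak downstream of Angptl8 (1.66-fold and 1.64-fold) nearly as they were.

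Lmf1, the maturation factor of LPL in the endoplasmic reticulum, had 5 peaks and 0 calls by either test, where 11.6% (JTK) and 13.4% (cosine) of all peaks were called, so that 0 of 5 is near the share over all peaks. At an unadjusted p under 0.05 the cosine also gave 0. Its strongest peak, over the start site at chr17:25578819-25580176 with its centre in intron 1, had 935 reads per kb, at the 97.6 percentile. Its normalized counts were 1449, 1255, 1310, 1386, 1118, 1231, 1145 and 1261 from ZT0 to ZT21. They were highest at ZT0 and lowest at ZT12, by 1.30 times (1.20 to 1.40), in no smooth order (exact JTK P = 1, cosine adjusted p = 0.36). The other 4 peaks, in exon 2, intron 3 and intron 5 (2 peaks), had means of 78.5 to 197.8 normalized counts and cosine adjusted p between 0.458 and 0.837. The fitted swings of the 5 peaks were 1.13-fold to 1.26-fold.

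Whether the genes differed from each other and from Lpl was tested on ratios of raw counts of peaks within a library, which no scaling factor of a library can change. Cyclic loess, which depends on signal strength, does change them. The strongest peak at Lpl, over its start site, ran from 6225 at ZT15 to 7866 at ZT6 (cosine adjusted p = 0.106). The strongest peak in the Gpihbp1 window is that at the Zfp41 start, so the 4 pairs with it do not test Gpihbp1. Of the 10 pairs among the strongest peaks of the 4 windows and Lpl, 0 passed an adjusted p of 0.05 in the exact permutation test over 40320 orders of the libraries, and 0 had an unadjusted p under 0.05. The smallest p the test allows is 0.000397. The lowest p in these pairs was 0.0591. The Angptl4 peak held 1.50 (ZT15) to 1.93 (ZT6) times the reads of the Lpl peak, a swing of 0.28 ± 0.08 (log2, SE; exact permutation p = 0.0623, adjusted 0.274). Relative to the Angptl8 peak, Angptl4 swung by 0.59 ± 0.19 (log2; exact permutation p = 0.0821, adjusted 0.274).

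With the start-site peaks in place of the strongest, a choice made after the data were seen, 0 of 10 pairs passed after adjustment and 2 had an unadjusted p under 0.05. The widest was Angptl8 against Gpihbp1, whose ratio was lowest at ZT6 (4.23) and changed 2.59-fold over the day. Its fitted swing was 1.20 ± 0.19 (log2), with an exact permutation p of 0.00913 (adjusted 0.0913). Angptl4 against Angptl8 had 0.69 ± 0.19 (exact permutation p = 0.0437, adjusted 0.163). Within windows, 0 of 21 pairs passed after adjustment and 5 had an unadjusted p under 0.05. The test reads any 24 h swing of a ratio, in size or in time, and does not test timing alone.

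**Figure D5:**
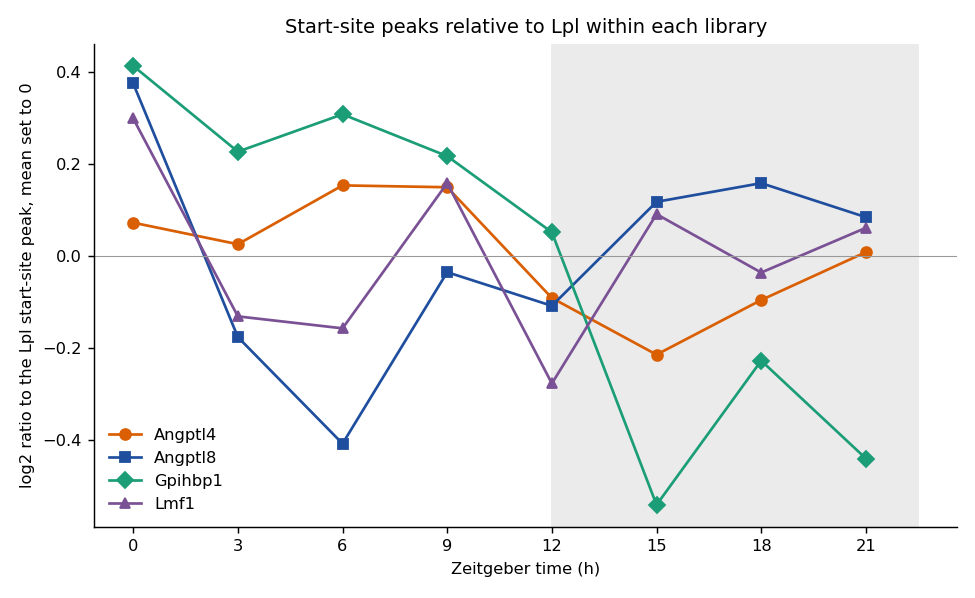
Log2 ratio of the raw counts of each start-site peak to those of the Lpl start-site peak in the same library, with the mean of each gene set to 0, against Zeitgeber time (dark phase shaded). The Gpihbp1 line is above 0 from ZT0 to ZT12 and below it from ZT15 to ZT21, the Angptl8 line is lowest at ZT6, and none of these 4 ratios passed the adjusted permutation test (exact permutation p of 0.0623 to 0.613).

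A fixed list of 14 genes of the LPL pathway, Lpl among them, had 126 peaks by nearest start site, at 13 genes. None lay nearest to Apoa5. JTK called 16 of these (12.7%) and the cosine 15 (11.9%), beside 11.6% and 13.4% of all peaks. Of the 15, 14 had their fitted high point from ZT0 to ZT12, as did 5000 of the 8842 cosine calls over all peaks. Lpl itself supplied 24 of the 126 peaks, 8 of the 16 JTK calls and 7 of the 15 cosine calls. All 7 had high points from ZT0 to ZT12. The other genes of the list thus had lower shares of calls than the pooled ones, and lower than those over all peaks. Lipg, which codes for endothelial lipase, had 4 cosine calls and 1 JTK call among 16 peaks. Its strongest peak ran from 1684 at ZT15 to 2761 at ZT6 (exact JTK P = 0.0826, cosine adjusted p = 0.0206). The strongest of 5 peaks nearest to Apoc2, which codes for the activator of LPL, lay 4300 bp from its start. It ran from 1495 at ZT15 to 2136 at ZT6 (exact JTK P = 0.026, cosine adjusted p = 0.0518). The peak nearest to Apoc3, which codes for an inhibitor, was lowest at ZT6 (958.3) and highest at ZT0 (1397) without a call (cosine adjusted p = 0.0709). The paper reports that expression of Apoc2 and Apoc3 was not detected in brown fat.

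The strongest peaks of the rest of the list gave no cosine call. Furin, a protease that cleaves LPL and ANGPTL proteins, was lowest at ZT6 (1444) and highest at ZT21 (1819), with an exact JTK P of 0.026 and a cosine adjusted p of 0.115. Lrp1, a lipoprotein receptor, was highest at ZT6 (2568) and lowest at ZT18 (1942), with an exact JTK P of 0.000744 and a cosine adjusted p of 0.0805. Those of Cd36, Vldlr, Pltp, Pcsk6, Sel1l and Apoc1 changed by 1.13 to 1.37 times between their lowest and highest library and passed neither test.

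Peaks with courses like those of the members were counted as a description. Among 52182 peaks with a mean of at least 100 normalized counts outside the window, 1977 had a Pearson r over 0.9 with the Angptl4 peak in log2 normalized counts over the 8 libraries, which share their depth and strong-peak share. The most alike were nearest to Gm36814 (r = 0.9973, 497229 bp from its start), Gpat4 (0.9962, 6190 bp), a triglyceride synthesis enzyme, and Mbnl2 (0.9961, 9789 bp). Names here give the nearest start site, which can lie far off, as at 115442 bp for the Mir7243 peak below. For the Gpihbp1 start-site peak 1006 peaks passed r of 0.9, led by those nearest to Cfap45 (0.9972), Atoh8 (0.9951) and Arhgap23 (0.9934). Fewer peaks were like the others, with 56 for the strongest peak of Angptl8, led by Mir8101 (0.9767), Sirpa (0.9728) and Hmgcs1 (0.9653), and 67 for that of Lmf1, led by Mir7243 (0.9888), Ntng2 (0.9748) and Asap1 (0.973). The Zfp41 peak in the Gpihbp1 window had 174.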

How the data were processed

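PPARγ ChIP-seq was performed on pooled iBAT at 8 time points, 1 library each. The deposited table holds raw counts of reads per peak, whole numbers that the authors made for 66066 peaks. Per the submitters' processing notes and the methods, reads were mapped to mm10 with BWA 0.7.17, peaks called with MACS2 2.1.2, reads counted with HTSeq 1.99.2 and peaks annotated with HOMER 4.11. The methods state that peaks significant by FDR in most of the 8 libraries were then filtered by expression. The study reports the same number of peaks, 66066, so sites bound at only some of the times may be absent. How peaks were merged across libraries, how duplicates were treated and whether the input was used in calling are not given in the sources used here. No column was left unmapped (0).

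Counts were scaled by TMM (edgeR 4.0.16, R 4.3.3), since the methods name edgeR. JTK-cycle was rebuilt with periods of 21 and 24 h, an exact null and Bonferroni adjustment over 15 period and phase combinations. Reference values equal by symmetry were ordered by a slight shift of time. That order was settled by comparing P-values with the study's supplementary peak table, so the number of JTK calls is not independent of it. A 24 h cosine was tested with edgeR (glmQLFit and glmQLFTest, 5 residual degrees of freedom), with departures from the cosine standing in for replicate error. Swing and time of the high point came from least squares on log2 normalized counts. No further filter on low counts was put on the deposited peaks. Ratios were tested by exact permutation of R², with p the share of orders whose R² was at least that observed. R² has no sign, so swings at any time of day count alike. Intervals (95%) were Wilson intervals for single counts and log-scale intervals from both counts for ratios. They cover counting error only, and reads are not independent molecules. Peaks were placed on 45756 curated RefSeq transcripts of GRCm38.p6, giving a nearest start site to 66059 peaks, and 10 of the 25 members were nearest to another gene. On simulated data (5000 peaks, 200 rhythmic with a natural-log amplitude of 0.5, a wider swing than in any member peak) the cosine recovered 199 with 6 false calls, and JTK 164 with 64.

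Alternatives were other normalizations (library totals, DESeq2 1.42.0 size factors, upper quartile, limma 3.58.1 cyclic loess), filters, thresholds, a DESeq2 likelihood ratio test, tied reference values and leaving out libraries. Named were the strongest, start-site and called peaks of each gene, the 3 peaks most like each in course, and the strongest peak of each pathway gene, of which 1 is not reported here. The members and lists were chosen with earlier results of these data known.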

Additional observations from a re-analysis of the deposited data

How the results depend on the processing

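No paired analysis was possible because each time point was 1 library and no replicate numbers were shared. The JTK count of 4 member peaks was 1 under cyclic loess, 1 with tied reference values and 0 at a threshold of 0.01. With members taken by nearest start site, which leaves 15 peaks, the count was 1. The other JTK-called members lay nearest to Rab11b, Kank3 or Dock6. The JTK count was 0 without the ZT15 and ZT18 libraries. It was 2 to 5 when 1 library was left out, with 2 without ZT6. Over all peaks it was 7686, against 2164 with tied reference values, 3079 at 0.01, 5200 without ZT15 and ZT18 and 7432 to 10802 with 1 library left out. The cosine count of 7 member peaks was 2 at 0.01, 0 without ZT15 and ZT18 and 3 to 9 with 1 library left out, with 3 without ZT6 and 3 without ZT18. Over all peaks it was 8842, against 2243 at 0.01, 826 without ZT15 and ZT18 and 3067 to 11203 with 1 library left out (4280 without ZT6, 5609 without ZT9, 5694 without ZT12, 3730 without ZT15, 3067 without ZT18). Dropping libraries also leaves fewer residual degrees of freedom. The DESeq2 likelihood ratio test called 9 members and 9975 peaks. Ratio pairs within windows that passed went from 0 to between 0 and 2 with 1 library left out (1 without ZT3, 2 without ZT15, 1 without ZT18). The 7 members with a DR1 element became 2 with at most 1 mismatch and 2 within 150 bases of the peak centre. For single member peaks, 22 JTK and 27 cosine results lost a call under an alternative and 9 and 9 gained one, while 392 and 362 stayed on their side of the threshold. Most of those that stayed were of peaks without a call to lose. The losses came from the 4 JTK-called peaks, with 17 alternatives each, and the 7 cosine-called peaks, with 16 each. Where no reason follows from how an alternative is built, the cause was not tested. With 1 library a time point, a difference between time points and one between libraries cannot be told apart. In 19 of the 25 member peaks every pair of neighbours in the order of levels had overlapping counting intervals. This was counted for the members alone, with no share over all peaks. Counting intervals are wider, relative to the count, in weak peaks. The Angptl4 and Rab11b start-site peaks, the strongest members, each had 3 of 7 pairs overlapping.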
